A study of Mus musculus with 6 samples.

Results

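The genes described are the ligands, receptors, secreted inhibitors, intracellular transducers and targets of the Wnt, FGF, BMP/TGF-beta and Notch pathways, and the measurement is the presence of a Dppa2 peak at their transcription start sites (TSSs) in mouse embryonic stem cells (ESCs). They were chosen by gene symbol from the protein-coding genes of GENCODE M1 on mm9, which gave 135 of 22367 gene entries. A gene was called bound when the midpoint of a V5-Dppa2 peak lay within 1000 bp of the TSS of any of its transcripts, and 41 of the 135 were bound. The 135 entries have 134 symbols, as Fgfr1 has 2 entries, which share 1 peak, and the 41 bound entries therefore have 40 symbols and 40 peaks. Of the 135 entries, 6 carry a matching symbol without being a ligand, receptor, inhibitor, transducer or target in the lists used here (Bmp1, Bmp2k, Fgfr1op, Fgfr1op2, Tgfb1i1 and Tgfbrap1). They are counted among the 135, and of them only Bmp2k was bound.

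Chromatin was precipitated with anti-V5 beads from CGR8 cells, a mouse ESC line kept without feeders on gelatin in medium with serum and leukemia inhibitory factor. The tagged cells were puromycin-selected stable clones that carried Dppa2 with an N-terminal V5 tag, expressed from a pPyCAG-driven vector introduced with lipofectamine. The control ChIP was done on CGR8 cells without a V5 tag. Each was represented by 1 library, and 4 further samples for histone modifications were not analysed here. The protein measured is therefore a tagged one expressed from a vector, in addition to any Dppa2 of the cells themselves. The data are a list of 3336 peaks with a score each, calculated by MACS as −log10 of its p-value multiplied by 10. It was taken to hold the peaks at TSSs, so that binding far from any TSS is not described here. The depth of the libraries is unknown, the cell type cannot be checked from a peak list, and with 1 library there is no replicate error. The interval beside a share is the exact one of Clopper and Pearson at 95% and covers no error other than that of counting.

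Dppa2 is a SAP domain protein of pluripotent cells and the early germ line. Wnt proteins are secreted ligands that act through Frizzled receptors with the co-receptors Lrp5 and Lrp6, and secreted FGFs act through receptor tyrosine kinases. BMPs, activins, TGF-betas and most GDFs act through pairs of type I and type II serine/threonine kinase receptors, which phosphorylate Smad proteins. Notch receptors are activated by Delta and Jagged ligands on neighbouring cells and switch on Hes and Hey repressors. Serum and leukemia inhibitory factor are standard for ESC culture, in which BMP signalling supports self-renewal, whereas autocrine Fgf4 drives ESCs towards lineage commitment.

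To show the sequence at these promoters, the 150 bases upstream of a TSS (for bound genes the one nearest to the peak midpoint) are given on mm9 for the bound gene with the highest peak score in each pathway and for an unbound gene of the same pathway. The unbound gene was the one whose CpG observed-to-expected ratio was closest to the median of the unbound genes of its pathway, among those with no annotated exon in the stretch. Each is written 5′ to 3′ on the strand of the gene, and capitals mark CpG dinucleotides. The first 4 are the bound genes and the last 4 the unbound ones.
Fzd9 (chr5:135727101-135727250, minus strand): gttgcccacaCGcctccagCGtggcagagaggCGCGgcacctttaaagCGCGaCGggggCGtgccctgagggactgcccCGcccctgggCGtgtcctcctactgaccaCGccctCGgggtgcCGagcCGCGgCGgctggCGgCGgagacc
Fgf3 (chr7:152024350-152024499, plus strand): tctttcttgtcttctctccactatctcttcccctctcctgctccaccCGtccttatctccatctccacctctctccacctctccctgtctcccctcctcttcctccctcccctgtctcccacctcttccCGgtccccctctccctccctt
Smad1 (chr8:81923418-81923567, minus strand): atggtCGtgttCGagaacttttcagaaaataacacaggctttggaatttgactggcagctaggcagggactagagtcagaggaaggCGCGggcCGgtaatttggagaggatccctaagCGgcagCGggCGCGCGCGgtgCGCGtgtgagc
Notch2 (chr3:97817311-97817460, plus strand): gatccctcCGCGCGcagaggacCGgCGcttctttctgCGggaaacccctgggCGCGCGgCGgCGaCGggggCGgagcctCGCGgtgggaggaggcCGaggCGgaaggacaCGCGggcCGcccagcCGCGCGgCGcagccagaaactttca
Wnt5a (chr14:29317786-29317935, plus strand): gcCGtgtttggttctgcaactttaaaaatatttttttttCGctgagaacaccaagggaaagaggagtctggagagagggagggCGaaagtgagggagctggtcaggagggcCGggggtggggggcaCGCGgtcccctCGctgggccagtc
Fgf17 (chr14:71042076-71042225, minus strand): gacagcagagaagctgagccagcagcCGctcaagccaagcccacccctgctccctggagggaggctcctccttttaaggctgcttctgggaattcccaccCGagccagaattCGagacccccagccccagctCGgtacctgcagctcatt
Smad9 (chr3:54559354-54559503, plus strand): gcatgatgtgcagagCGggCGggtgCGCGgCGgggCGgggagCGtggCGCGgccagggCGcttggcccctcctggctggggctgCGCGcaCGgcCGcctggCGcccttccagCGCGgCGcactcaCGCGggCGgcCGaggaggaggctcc
Notch3 (chr17:32303826-32303975, minus strand): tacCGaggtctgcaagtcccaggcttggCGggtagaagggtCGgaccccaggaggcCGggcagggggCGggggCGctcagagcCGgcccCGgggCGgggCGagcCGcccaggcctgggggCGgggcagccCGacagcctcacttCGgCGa

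These stretches held 18 CpGs at Fzd9, 2 at Fgf3, 13 at Smad1 and 24 at Notch2. At the unbound genes they held 7 at Wnt5a, 4 at Fgf17, 22 at Smad9 and 15 at Notch3. The number of CpGs just upstream of the TSS thus overlapped between these bound and unbound genes. The Fgf3 stretch lies upstream of an internal start site, the one nearest to the midpoint, and is itself within the gene. The midpoint of the Fgf3 peak was 319 bp downstream of that site and 831 bp downstream of the 5′ end of the gene, and the peak held 175 CpGs in all.

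Of the signalling genes, 41 of 135 or 30.4% had a Dppa2 peak (22.8 to 38.9%), whereas 14.2% of all protein-coding genes did (3169 of 22367). Restricted to peaks with a score of at least 200, a MACS p-value of 1e-20, 27 of 135 or 20.0% were bound, beside 8.06% of all protein-coding genes. Without the 6 genes matched by symbol alone, the share was 40 of 129 or 31.0%. The pathways lay close to each other. In the Wnt pathway 15 of 41 genes were bound (36.6%, 22.1 to 53.1%), in the BMP/TGF-beta pathway 13 of 43 (30.2%, 17.2 to 46.1%), in the Notch pathway 5 of 18 (27.8%, 9.69 to 53.5%) and in the FGF pathway 7 of 27 (25.9%, 11.1 to 46.3%). These 4 intervals overlap, and those of the Notch and FGF pathways include the share of all genes.

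The roles of the proteins lay further apart than the pathways. Of 33 receptor entries 17 were bound, or 51.5% (33.5 to 69.2%), and counted by symbol 16 of 32. The 69 ligands were taken by symbol and include Fgf11 to Fgf14, all unbound, which are intracellular FGF-like proteins rather than secreted ligands. Of the 69, 14 were bound, or 20.3% (11.6 to 31.7%), an interval that includes the share of all genes. The 2 intervals do not overlap with the peaks as listed, but they do at a score of at least 200 and with 1 TSS per gene, and the difference was not tested, as genes are not replicates. In each pathway the share of bound receptors was above that of bound ligands, with 7 of 12 against 4 of 19 in the Wnt pathway, 5 of 12 against 5 of 23 in the BMP/TGF-beta pathway, 3 of 5 against 4 of 22 in the FGF pathway and 2 of 4 against 1 of 5 in the Notch pathway. Both Fgfr1 entries, which share 1 peak, are among the 3 bound FGF receptors. Among the rest, 3 of 8 secreted Wnt inhibitors, 4 of 10 intracellular proteins and 2 of 9 Hes and Hey genes were bound. With so few genes in each of these roles the intervals are wide, and each includes the share of all genes. None of these roles is therefore shown to differ from all genes. At a score of at least 200 the receptors were at 30.3% (10 of 33, 15.6 to 48.7%) and the ligands at 13.0% (9 of 69, 6.14 to 23.3%), beside the 8.06% given for all genes at that score. With 1 TSS per gene they were at 42.4% (14 of 33, 25.5 to 60.8%) and 18.8% (13 of 69, 10.4 to 30.1%).

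**Figure D1:**
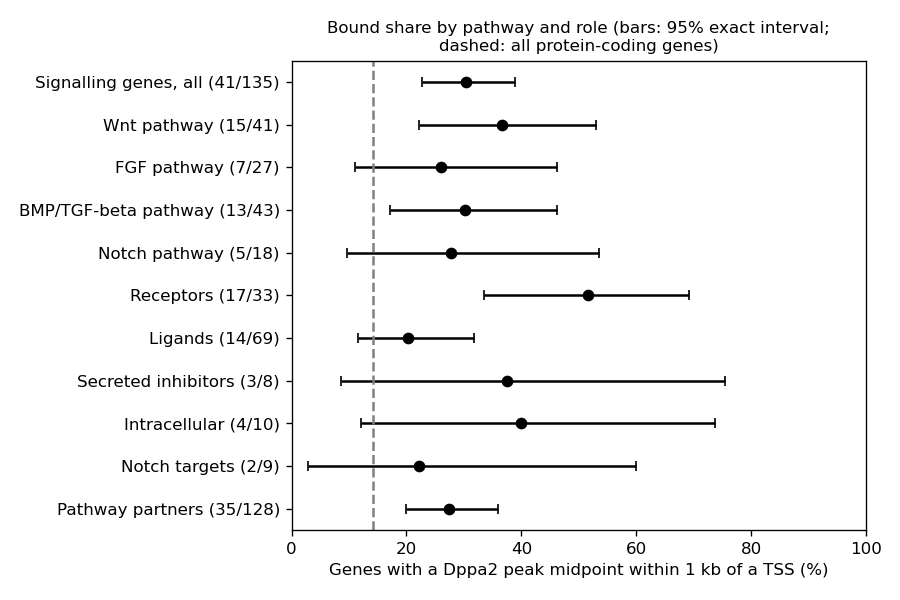
Percentage of genes with a V5-Dppa2 peak midpoint within 1 kb of a TSS (horizontal axis), for all signalling genes, each pathway, each role and the pathway partners, with bound and total entries in parentheses. Points are shares, bars are exact 95% intervals for counting error only and the dashed line is the share of all protein-coding genes (14.2%); receptors lie at 51.5% and ligands at 20.3%.

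Wnt receptors were bound in 5 of 10 Frizzled genes and in both co-receptor genes. Fzd9 (ENSMUSG00000049551) had the highest peak score of all the signalling genes, 593, which ranked 238 among the 3336 peaks. Its peak on chromosome 5, from 135725663 to 135727647, covers the TSS at 135727100 on the minus strand, and its midpoint lies 445 bp downstream in the coding part of an exon. Fzd3 followed with 321, Fzd8 with 237, Fzd6 with 217 and Fzd4 with 119. Fzd3 and Fzd6 are Frizzled receptors of planar cell polarity, and Fzd4 also serves as the receptor of Norrin in retinal vessels. The co-receptor genes Lrp5 (247) and Lrp6 (191) both had a peak centred in an untranslated exon, 56 and 152 bp downstream of the TSS. Fzd1, Fzd2, Fzd5, Fzd7 and Fzd10 had none. The Frizzled genes with a peak were thus spread from close to the lowest to the highest score among the signalling genes.

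BMP and activin receptors were bound on both sides of the receptor complex. The type I receptors were Bmpr1a (score 229), Tgfbr1 (192) and Acvr1 (132), and the type II receptors were the activin receptors Acvr2a (201) and Acvr2b (156). Bmpr1a is the BMP type I receptor needed for gastrulation, and Tgfbr1 is the type I receptor of TGF-beta. Acvr1b, Acvr1c, Acvrl1, Bmpr1b, Bmpr2, Tgfbr2 and Tgfbr3 had no peak, so that Bmpr2 and Tgfbr2, the type II receptors named for BMP and TGF-beta, were unbound. The scores of these 5 peaks all lay within 132 to 229, around or below the median of all peaks (228).

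FGF receptors with a peak were Fgfr1 (score 206), the main FGF receptor of ESCs, and Fgfr4 (124), while Fgfr2 and Fgfr3 had none. The Fgfr1 peak on chromosome 8, from 26628892 to 26630558, covers start sites of both Fgfr1 entries (ENSMUSG00000031565 and ENSMUSG00000091895), with the midpoint at −66 bp, upstream of the nearest TSS of the former, and at 458 bp, downstream of that of the latter. Of the Notch receptors, Notch2 (354) and Notch1 (166) had a peak and Notch3 and Notch4 had none. The Notch2 peak lay on chromosome 3 from 97817064 to 97818303, with its midpoint in the coding part of an exon 222 bp downstream of the TSS.

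At 5 entries the midpoint lay more than 1000 bp from the main TSS. The main TSS is the one shared by most transcripts, or the most upstream where start sites tied. For Acvr1, Smad2, Notch1, Dll1 and one Fgfr1 entry (ENSMUSG00000031565) the midpoint lay −50787, −20518, −12659, 1179 and 5599 bp from that main TSS, with negative values upstream. The Acvr1, Notch1 and Smad2 peaks were instead close to the 5′-most start of the gene, at 98, 182 and 394 bp. The Notch1 peak had its midpoint in an intron and lay on chromosome 2 from 26371442 to 26372560. With a single TSS per gene these 5 entries were no longer bound, and the receptors fell from 17 to 14 of 33 (42.4%).

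**Figure D2:**
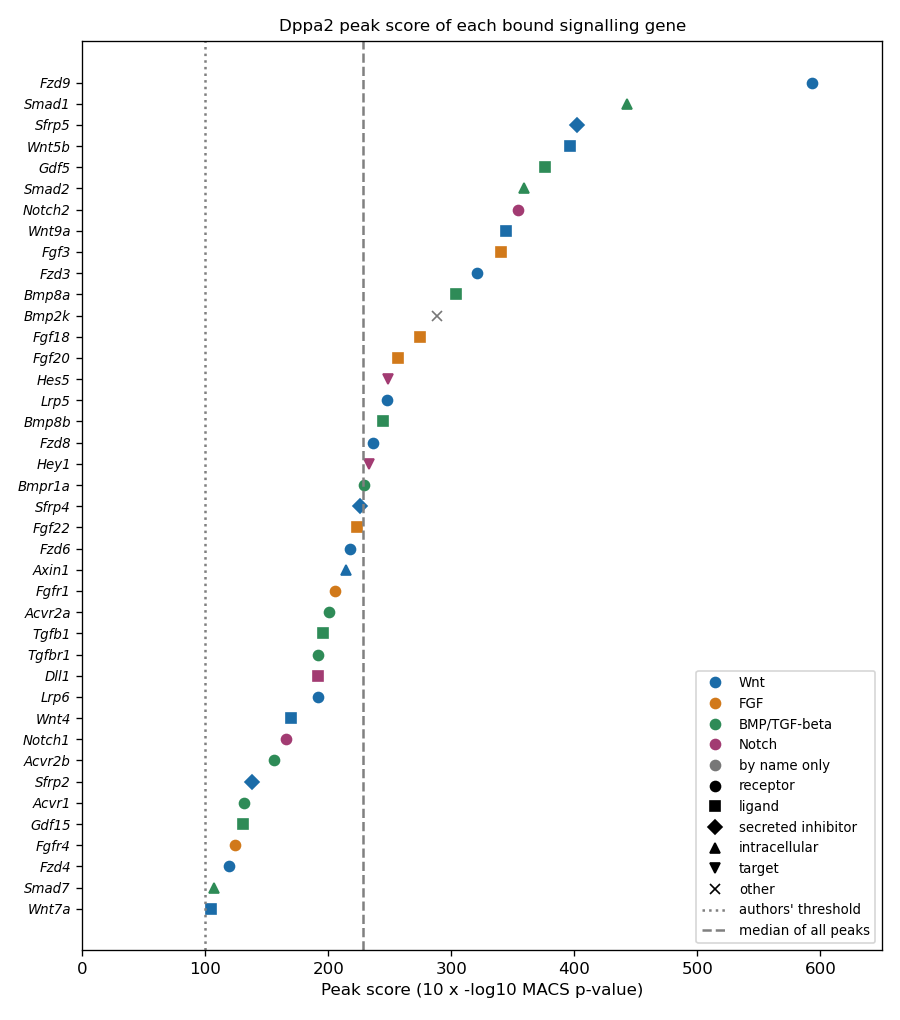
Score of the Dppa2 peak (−log10 of the p-value from MACS multiplied by 10, horizontal axis) at each of the 40 bound gene symbols, ordered by score, with the pathway as colour and the role as marker. The dotted line is the authors' threshold of 100 and the dashed line the median of all 3336 peaks (228); 20 of the 40 lie above it and Fzd9 stands highest at 593.

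Wnt ligands with a peak were Wnt5b (score 396), Wnt9a (344), Wnt4 (169) and Wnt7a (104). Wnt4 is known for kidney and female gonad development and Wnt7a for dorsal limb patterning. The Wnt9a peak was the widest of all the signalling genes, with 4437 bp on chromosome 11 from 59119073 to 59123509, and its midpoint lay 859 bp inside the gene. Its neighbour Wnt3a, whose product is used to sustain ESC self-renewal, had no peak of its own, as the nearest midpoint was that of Wnt9a, 17.0 kb away. None of Wnt1 and Wnt10b, Wnt3 and Wnt9b, or Wnt6 and Wnt10a, which are neighbours on their chromosomes, had a peak. Wnt8a and Wnt11 had none either. Of 19 Wnt genes, 15 were thus unbound.

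FGF ligands with a peak were Fgf3 (340.2), Fgf18 (274), Fgf20 (257) and Fgf22 (223). Fgf3 acts in the inner ear, Fgf18 in cartilage and bone, and Fgf22 at synapses. On chromosome 7 the Fgf3 peak spanned 152023590 to 152026049, and the linked genes Fgf4 and Fgf15 had no peak within 1000 bp, as their start sites lay 22.5 and 57.6 kb from the Fgf3 midpoint. Fgf5 and Fgf8, which mark primed cells and the gastrula, had none, and the nearest midpoints were 999 and 82.7 kb away. Neither had Fgf2 (249 kb). Of 22 FGF genes, 18 were unbound.

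BMP and TGF-beta ligands with a peak were Gdf5 (376), Bmp8a (304), Bmp8b (244), Tgfb1 (196) and Gdf15 (131). Bmp8b acts in the specification of primordial germ cells, Gdf5 in joint formation, and Gdf15 is a circulating stress factor. Bmp8a and Bmp8b are related genes on chromosome 4 with a peak each, and the unbound Heyl lies between them. Measured from the main TSS, both peaks were centred downstream, at 311 and 209 bp, although an internal TSS of Bmp8a was closer to the midpoint. Sequence that could belong to several places was rare there, as 5.46% of the 36-mers of the Bmp8b peak and 0% of those of the Bmp8a peak occurred more than once in mm9. Bmp4, the BMP most used in ESC culture, had no peak (nearest midpoint 397 kb away), nor had Bmp2, Bmp7, Gdf3 or Tgfb2. Gdf5 and Gdf15 were among the few genes whose peak was poor in CpGs, as given with the promoter content.

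Delta-like 1, Dll1, was the only Notch ligand with a peak (192), which spanned 3070 bp on chromosome 17 from 15511123 to 15514192. Dll3, Dll4, Jag1 and Jag2 had none, with the nearest midpoints 16.7, 22.6, 1427 and 47.4 kb away. The Hes and Hey genes were taken by symbol as Notch targets, and not each of them need be one. Hes5 and Hey1 are repressors that keep neural progenitors from differentiating. They had a peak each (248 and 233), centred upstream of the TSS at −110 and −291 bp. Hes1, Hes2, Hes3, Hes6, Hes7, Hey2 and Heyl had none. Hes1, the Hes gene that cycles in ESCs, lay 118 kb from the nearest midpoint.

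Secreted Wnt inhibitors were counted by family. Of the 4 Frizzled-related proteins, which bind Wnt through a Frizzled-like domain, Sfrp5 (402), Sfrp4 (225) and Sfrp2 (138) had a peak and Sfrp1 did not. None of the 4 Dickkopf genes Dkk1 to Dkk4 had one. With 4 genes in each family the exact intervals were 19.4 to 99.4% and 0 to 60.2%, which overlap. The latter includes the 14.2% of all genes, so the families are not shown to differ. The CpG observed-to-expected ratio around the main TSS was 0.305 to 0.480 at the Dickkopf genes and 0.503 to 1.04 at the Frizzled-related ones. Whether it bears on the counts was not tested.

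Intracellular proteins with a peak were Smad1 (443), which transmits BMP signals, Smad2 (359), which transmits activin, Nodal and TGF-beta signals, the inhibitory Smad7 (107), and Axin1 (215), the scaffold of the beta-catenin destruction complex. The Smad1 peak lay on chromosome 8 from 81922050 to 81923811, and its midpoint was in an intron 487 bp downstream of the TSS. Smad3, Smad4, Smad5, Smad6 and Smad9 had no peak. Thus of the pairs of closely related transducers, Smad1 had one but Smad5 and Smad9 did not, and Smad2 had one but Smad3 did not. Bmp2k, a kinase named after its induction by Bmp2, had a peak with a score of 289.

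**Figure D3:**
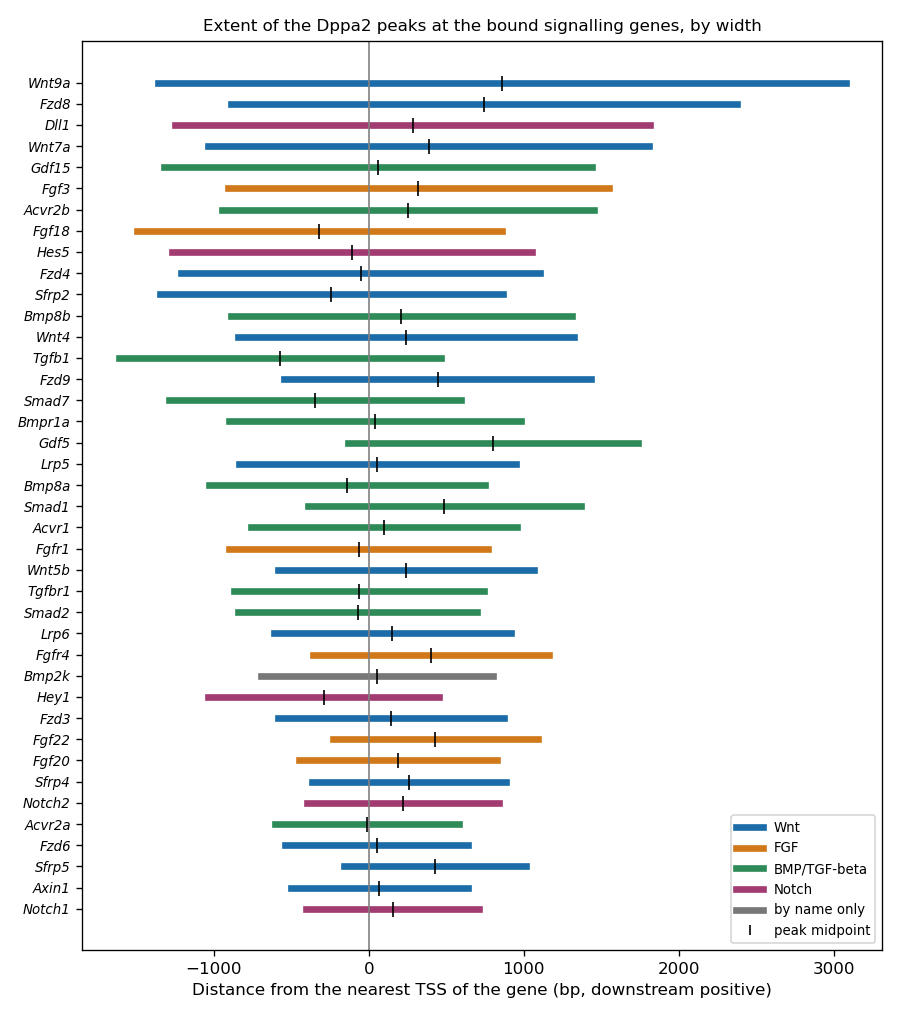
Extent of the Dppa2 peak at each bound signalling gene relative to its nearest TSS (horizontal axis, bp, positive downstream), ordered by width and coloured by pathway, with a tick at the midpoint. Each of the peaks spans the TSS, and widths run from 1119 bp at Notch1 to 4437 bp at Wnt9a.

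The peaks at signalling genes were of ordinary score. Their median score was 227, with quartiles of 186 and 308 and a range of 104 to 593, beside a median of 228, quartiles of 156 and 348 and a highest score of 3100 over all peaks. Of the 40 peaks, 20 lay above the median of all peaks. Only Fzd9 was in the top decile. The share with a score of at least 200 was 65.0% (26 of 40), beside 59.3% of all peaks. Bound receptors had a median score of 206 (n = 17) and bound ligands of 251 (n = 14), with ranges of 119 to 593 and 104 to 396.

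In width they stood further from the rest of the list. The median was 1773 bp (quartiles 1481 and 2240), beside 1433 bp over all peaks (quartiles 1183 and 1776), and 31 of 40 were wider than the median of all peaks. Peaks of 2200 bp or more made up 27.5% (11 of 40), beside 9.95% of all peaks (332 of 3336). They were those of Wnt9a, Fzd8 (3261 bp), Dll1 (3070 bp), Wnt7a (2848 bp), Gdf15 (2759 bp), Fgf3 (2460 bp), Acvr2b (2400 bp), Fgf18 (2354 bp), Hes5 (2328 bp), Fzd4 (2321 bp) and Sfrp2 (2213 bp). Among the bound ligands 6 of 14 had such a peak and among the bound receptors 3 of 17, with median widths of 2185 and 1667 bp. The widest peaks were not those with the highest scores, as the Wnt7a peak had the lowest score of all the signalling genes and the Fzd9 peak a width of 1985 bp.

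Midpoints lay a median of 152 bp downstream of the nearest TSS of the gene, beside 121 bp for all bound protein-coding genes. They were downstream at 29 of 41 entries (70.7%) and at 69.3% of all bound protein-coding genes. By annotation 14 of the 41 midpoints were in an untranslated exon, 9 in a coding exon, 9 in an intron and 9 upstream of the gene. All 41 peaks covered the TSS. Another gene had a TSS within 1000 bp of the midpoint at 8 entries (Acvr1, Bmpr1a, Dll1, Fgf20, Fzd4, Fzd6, Hes5 and Smad7). At Smad7 and Fgf20 that other gene was nearer. As the list gives no summits, none of the peaks at these 8 entries can be assigned to 1 gene. The other gene was Tmem135 at Fzd4, Upp2 at Acvr1 and Efha2 at Fgf20. The annotation of the midpoints and the count of other genes were not set beside those of all bound protein-coding genes.

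The bound genes closest to the limit of 1000 bp were Wnt9a (859 bp), Gdf5 (804 bp) and Fzd8 (744 bp). Just outside it was Axin2, a Wnt target and scaffold protein, with a midpoint at −1300 bp from an internal TSS and a score of 258. That midpoint lies inside Axin2, whose main TSS is at 108781663 and internal TSS at 108804935, and is nearest to Gm11670. The next was Gdf7, 2852 bp from the midpoint of a peak with a score of 548. The other unbound genes were mostly far from any listed peak. Of 94, 92 had no midpoint within 5 kb and 59 none within 100 kb, and the median distance was 149 kb. These distances were not set beside those of all unbound protein-coding genes, so they cannot be read as particular to the signalling genes. Hes3 and Hes2 were at 5.98 and 6.86 kb, from peaks at Icmt and Espn.

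The centres of the peaks are shown by the 100 reference bases around the midpoint at the highest-scoring gene of each pathway and at Notch1, the bound gene with the lowest number of CpGs in its peak, which was added after its values had been seen. Capitals again mark CpG dinucleotides, and the strand is that of the gene on mm9.
Fzd9 (chr5:135726605-135726704, minus strand): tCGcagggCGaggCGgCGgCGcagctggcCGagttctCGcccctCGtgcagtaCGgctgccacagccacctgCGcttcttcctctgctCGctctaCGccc
Fgf3 (chr7:152024769-152024868, plus strand): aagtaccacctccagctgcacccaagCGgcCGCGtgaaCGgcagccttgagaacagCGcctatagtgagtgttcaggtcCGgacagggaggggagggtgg
Smad1 (chr8:81922880-81922979, minus strand): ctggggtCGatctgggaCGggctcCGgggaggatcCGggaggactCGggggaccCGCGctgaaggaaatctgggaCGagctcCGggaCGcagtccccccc
Notch2 (chr3:97817633-97817732, plus strand): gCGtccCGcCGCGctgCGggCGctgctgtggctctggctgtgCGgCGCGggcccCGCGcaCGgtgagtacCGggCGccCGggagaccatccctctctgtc
Notch1 (chr2:26371951-26372050, minus strand): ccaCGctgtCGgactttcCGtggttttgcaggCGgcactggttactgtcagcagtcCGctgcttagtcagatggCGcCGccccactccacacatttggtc

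These windows held 12 CpGs at Fzd9, 6 at Fgf3, 10 at Smad1, 15 at Notch2 and 7 at Notch1. Over the whole peak the CpG number was 156 at Fzd9, 160 at Smad1, 116 at Notch2 and 20 at Notch1. Notch1 thus carried 7 of the 20 CpGs of its peak in the 100 bases at the centre. The observed-to-expected ratio of the Notch1 peak was 0.241, and low ratios were also found at Gdf5 (0.305), Gdf15 (0.322) and Fgf22 (0.340). The median over the 40 peaks was 0.775, beside 0.713 over all peaks. Peaks with over 100 CpGs made up 77.5% of those at signalling genes and 47.3% of all peaks. The peaks at signalling genes were also the wider ones, and a count of CpGs is not corrected for width.

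Promoter content was measured over 1000 bp around the main TSS. Bound signalling genes had a median GC content of 66.7% (quartiles 59.7 and 70.4), and unbound ones 60.8% (quartiles 54.8 and 64.9). Over all protein-coding genes the medians were 63.2% for bound and 53.3% for unbound genes. The CpG ratio followed the same order, with 0.820 for bound and 0.655 for unbound signalling genes and 0.776 and 0.467 over all genes. The unbound signalling genes were therefore richer in GC and CpG than the unbound genes at large, and the groups overlapped widely. Unbound genes with a high ratio were Bmp2 (1.08), Jag2 (1.07), Sfrp1 (1.04) and Smad4 (1.02), all above the highest bound ligand Wnt5b (0.992). The highest ratio of all the signalling genes was at the bound receptor gene Acvr2a (1.15). The bound receptor genes Lrp6 (1.05) and Fzd3 (1.03) were also above Smad4.

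**Figure D4:**
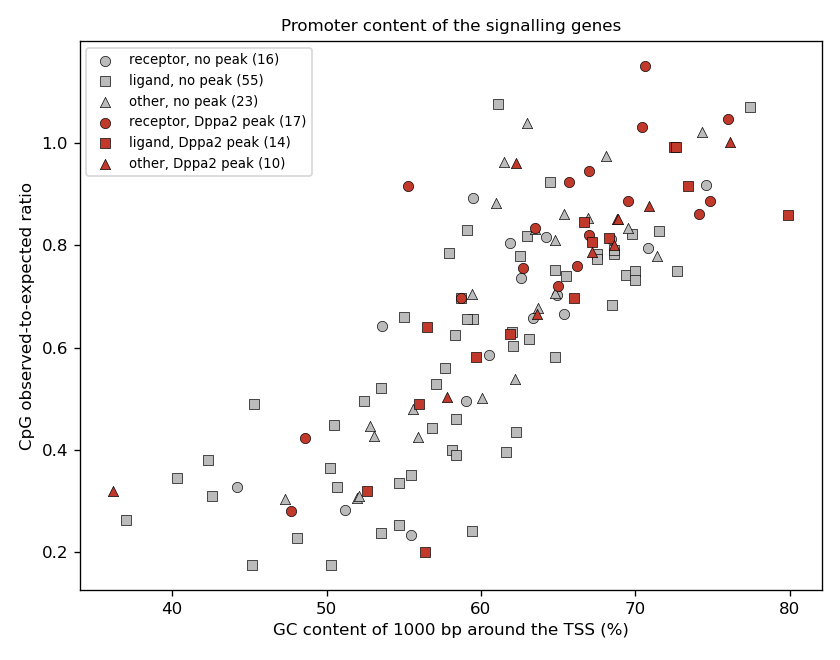
GC content (horizontal axis, %) against CpG observed-to-expected ratio (vertical axis) of 1000 bp around the main TSS of each of the 135 signalling genes, red with and grey without a Dppa2 peak, with the role as marker. Red and grey points overlap, with medians of 66.7 and 60.8% GC, and most red points lie at the upper right.

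Receptor promoters were richer in GC and CpG than those of ligands, with medians of 64.2 against 59.5% GC and a ratio of 0.794 against 0.627. In the top decile of the CpG ratio over all protein-coding genes were 10 of 33 receptors and 6 of 69 ligands, of which 8 and 3 were bound. Content therefore differed between the roles along with the bound share. To set the shares side by side at like content, the share of all protein-coding genes was weighted to the deciles of GC content over all genes in each list. This gave 25.0% for the signalling genes, beside 30.4% measured, which lies within the interval of the latter. For the ligands it gave 22.7%, beside 20.3% measured. For the receptors it gave 27.6%, beside 51.5% measured, which is below the interval of 33.5 to 69.2%. With deciles of the CpG ratio in place of GC the weighted shares were 19.3, 16.5 and 23.2%, and with both properties together 25.4, 22.8 and 28.4%, for signalling genes, ligands and receptors. By number of start sites they were 14.1, 13.7 and 14.3%. The share of the signalling genes as a whole was thus above the weighted share by the CpG ratio but within its interval by GC, and the receptors were above each of the weighted shares. Content was measured at the main TSS, whereas 3 of the 17 bound receptor entries (Acvr1, Notch1 and one of Fgfr1) were bound only at another. With 1 TSS per gene throughout, the weighted share of the receptors was 27.0% by GC and 27.9% by both properties, which lie within the interval of 25.5 to 60.8% around the 42.4% measured, and 22.7% by the CpG ratio, which lies below it.

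Within the decile of genes richest in GC, 21 of 41 signalling genes were bound (51.2%), beside 45.6% of all genes there. In the ninth decile 6 of 22 were bound (27.3%, beside 28.4%), in the eighth 3 of 16 (18.8%, beside 22.7%) and in the seventh 3 of 17 (17.6%, beside 16.5%). Over these deciles together 33 of 96 were bound (34.4%, 25.0 to 44.8%), beside 28.3% of all genes, a share within the interval. In the lower deciles together 8 of 39 were bound (20.5%, 9.30 to 36.5%), beside 4.77% of all genes, a share below the interval. Of these 8 entries, Smad2, Acvr1, Dll1 and one Fgfr1 entry were bound only at a start site other than the one used for GC content. With 1 TSS per gene 4 of 39 were bound in the lower deciles (10.3%, 2.87 to 24.2%), beside 3.96% of all genes. By the CpG ratio the top decile had 13 of 22 bound (59.1%, beside 34.8%) and the ninth 10 of 23 (43.5%, beside 28.3%).

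**Figure D5:**
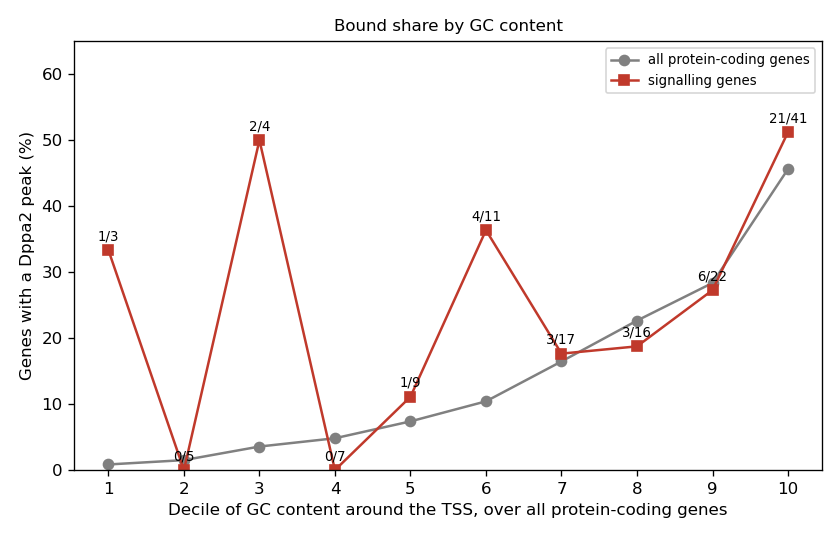
Percentage of genes with a Dppa2 peak (vertical axis) in each decile of GC content around the TSS (horizontal axis, 10 richest), for the signalling genes (red squares, with bound and total entries) and all protein-coding genes (grey circles). The lines run close together from the seventh decile on, ending at 51.2 and 45.6%; in the lower deciles, with 3 to 11 signalling genes each, the red points scatter and 8 of 39 genes were bound in all.

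Short motifs were searched in the same windows on both strands as a description of the promoters. GGGCGG, the GC box, was in 87.8% of bound and 80.9% of unbound signalling genes and in 59.6% of all protein-coding genes. CCAAT was in 48.8 and 68.1%, beside 70.2% of all genes, and TATAAA in 12.2 and 26.6%, beside 32.0%. CACGTG was in 17.1 and 18.1% (all genes 16.9%). GTGGGAA, a form of the Rbpj motif of the Notch pathway, was in 12.2 and 20.2% (all genes 19.4%), and CTTTGAT, a form of the Tcf motif of the Wnt pathway, in 4.88 and 10.6% (all genes 11.0%). The direction of these contrasts for the GC box, the CCAAT box and the TATA motif was that of all bound protein-coding genes, at 87.9, 58.7 and 16.6%. The same held for the Rbpj and Tcf motifs, at 16.3 and 7.29% of all bound protein-coding genes. These were in only 5 and 2 of the 41 bound signalling genes, with intervals of 4.08 to 26.2% and 0.596 to 16.5%. For CACGTG the bound signalling genes were slightly below the unbound ones. All bound protein-coding genes, at 18.9%, were instead above the 16.9% of all genes. A match in such a window is not a binding site.

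Along the chromosomes, 5 of 9 signalling genes on chromosome 4 and 5 of 8 on chromosome 8 were bound, and 0 of 8 on chromosome 1 and 0 of 3 on chromosome X. Over all protein-coding genes the shares were 15.0% on chromosome 4, 23.7% on chromosome 8, 13.8% on chromosome 1 and 1.82% on chromosome X. With so few genes the intervals were wide, at 21.2 to 86.3% for chromosome 4, 24.5 to 91.5% for chromosome 8 and 0 to 36.9% for chromosome 1. The bound genes of chromosome 8 were Smad1, Fgf20, Gdf15 and both Fgfr1 entries, which share 1 peak but are counted separately. Those of chromosome 4 were Bmp8a, Bmp8b, Hes5, Tgfbr1 and Wnt4.

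Further components of the 4 pathways, outside the families above, were taken from a list of 128 symbols, of which 127 were found with 128 entries. Of these entries 35 were bound, or 27.3% (19.8 to 35.9%), beside the 14.2% of all genes. The share weighted by GC content was 24.1%, which lies within the interval, and by CpG ratio 20.4%. By pathway 10 of 35 Wnt, 11 of 40 BMP/TGF-beta, 6 of 24 FGF and 8 of 29 Notch components were bound. At a score of at least 200, 16 of 128 were bound (12.5%, 7.32 to 19.5%), an interval that includes the 8.06% of all genes.

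Among the Wnt components, Ror2, a receptor for Wnt5a, had the highest score of all the pathway genes examined (895, rank 70). Lgr4 (489) and Lgr6 (104), receptors for R-spondins, Znrf3 (413), the ubiquitin ligase that removes Frizzled receptors, and the R-spondin gene Rspo4 (148) also had a peak. So did the Dishevelled genes Dvl1 (368) and Dvl3 (181), Gsk3a (288), the Wnt deacylase Notum (203) and Nkd1 (119). Ctnnb1, Apc and Gsk3b, and the Tcf genes Tcf7, Tcf7l1, Tcf7l2 and Lef1, had none. These unbound genes are too few to be set apart from the 14.2% of all genes.

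FGF components with a peak were the FGF carrier Fgfbp3 (551), the co-receptor Klotho gene Kl (302), the phosphatase Ptpn11 (189), the transcription factor Etv4 (188), Fgfrl1 (186) and the inhibitor Spred1 (147). The Sprouty genes Spry1, Spry2 and Spry4 and the phosphatase Dusp6 had none. BMP/TGF-beta components with a peak were the latent TGF-beta binding proteins Ltbp1 (336) and Ltbp2 (236), the Smad repressors Ski (305) and Skil (195), and the extracellular regulators Fstl3 (304), Twsg1 (294), Bmper (279) and Chrd (110). Bambi (160.5), Rgma (139) and Inha (128) also had one. The Id genes Id1 to Id4, Nog, Nodal, Lefty1 and Lefty2 had none.

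Notch components with a peak were the non-canonical ligand Dlk1 (329), the Fringe glycosyltransferases Mfng (266) and Rfng (159.9), and the ubiquitin ligases Dtx4 (194), Itch (173) and Mib1 (146). The endocytic Notch inhibitors Numbl (179) and Numb (108) also had one. Rbpj, the DNA-binding factor of the pathway, and the Mastermind genes Maml1 to Maml3 had none.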

How the data were processed

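Anti-V5 ChIP-seq was examined in 1 V5-Dppa2 and 1 control library of mouse CGR8 ESCs, and 5 of the 6 samples had no file used here; the control entered through the peak calling. Per the methods and processing notes, the authors removed low-complexity reads, aligned to mm9 with Bowtie 0.12.7 (at most 2 mismatches in a seed of 36 bases, best alignment kept), removed duplicates and called peaks with MACS 1.4.2 at a shift size of 75 bp. They retained peaks that had 100 or more reads and a p-value up to 1e-10. The deposited score is −log10 of that p-value multiplied by 10. A read with several alignments was placed at the best one, so peaks in repeated sequence can contain reads from elsewhere; 35 of 40 peaks at signalling genes had no repeated 36-mer, and in the others at most 5.46% were repeated.

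Peak midpoints, as the list gives no summits, were set against the TSSs of GENCODE M1 transcripts on mm9. Intervals were read as BED, with starts counted from 0. GC content, the CpG ratio and 6 motifs were taken from the mm9 sequence. Weighted shares are the bound share of all protein-coding genes per decile, averaged over the deciles that a list falls in. With 1 library no test was made. All bound genes are named, as are unbound genes within 5 kb of a midpoint and bound pathway components. Of the other unbound members of the families only some are named. The members and lists were chosen with earlier results of these data known. The steps were tested on simulated data, in which 600 of 600 placed peaks got the right distance from the TSS. Alternatives were a stricter score, other windows, any base of the peak, other sets of TSSs, the nearest gene only and 50-mers. Python 3.11.15 was used with numpy 2.4.6, pandas 2.3.3, scipy 1.17.1, pysam 0.24.0, numba 0.67.0 and matplotlib 3.10.9.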

Additional observations from a re-analysis of the deposited data

How the results depend on the processing

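Of 67 values under other settings, 62 stayed within the interval or spread of the value reported and 5 moved beyond it. At a score of at least 200 the bound share was 20.0% for the signalling genes, 16.3% for the BMP/TGF-beta pathway, 30.3% for the receptors and 12.5% for the pathway partners. Fewer peaks enter at that score by construction, and all protein-coding genes went from 14.2 to 8.06%. With 50-mers, 2 peaks held repeated sequence in place of 5. Under the remaining settings the share of the signalling genes ran from 26.7%, with 1 TSS per gene, a setting chosen after seeing the data, to 31.1%, with a window of 2000 bp or any base of the peak. The genes lost at a score of at least 200 were 14, among them Notch1, Dll1, Lrp6, Fzd4, Tgfbr1 and Wnt7a. With a window of 500 bp Fzd8, Gdf5, Tgfb1 and Wnt9a were lost. A window of 2000 bp, or any base of the peak, added Axin2, at an internal TSS. No paired analysis was possible because each condition has 1 library. The depth of the libraries is unknown, so a gene without a listed peak is not shown to lack Dppa2.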
